A study of Mus musculus with 8 samples.

Results

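The 37 genes described here serve the mitochondrion. They are the 13 protein-coding genes of the mitochondrial genome, 17 nuclear genes for enzymes of the TCA cycle, and 7 nuclear genes that control or carry out mitochondrial biogenesis. They were picked out of 49315 Ensembl gene IDs by matching GENCODE M21 symbols to these names. The counts come from bulk mRNA sequencing of frozen mouse kidney, with 4 libraries from control animals, which the protocol also calls wild type, and 4 from animals in which Kdm1a was knocked out conditionally. This gene encodes LSD1, a demethylase of histone H3. The labels give neither the strain, age or sex of the animals nor the Cre driver, nor whether the numbered kidneys of a group came from separate animals, so p-values here measure the spread between these samples only. The submitters' design text names the histone mark H3K9me3, while the values are transcript counts.

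The mitochondrial genome is read from both strands into long precursors, which are cut mostly at the tRNA genes that lie between the coding genes. Its proteins are core subunits of respiratory chain complexes I, III and IV and of ATP synthase (complex V), and all other subunits, like all TCA cycle enzymes, are encoded in the nucleus. The coactivators Ppargc1a and Ppargc1b act through factors such as Esrra and Nrf1 on the nuclear genes, while Tfam, Polrmt and Polg transcribe, package and copy mitochondrial DNA. In the kidney, the proximal tubule and the thick ascending limb are among the segments known for dense mitochondria.

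Library totals ran from 19524945 to 28544511 counts. Kdm1a, the targeted gene, was at 110 to 120 CPM (counts scaled to library size) in the controls and at 90.9 to 95.3 CPM in the knockouts (log2 fold change −0.27, standard error, SE, 0.05, adjusted p = 0.0194). On the first principal component of all tested genes, control 2 (9.56) and knockout 3 (9.71) lay next to each other between the remaining controls and the remaining knockouts. Transcripts of 8 adrenal gland markers summed to 2593 CPM in knockout 1, 345 CPM in knockout 4, 142 CPM in control 4 and at most 15.6 CPM in the other libraries. The proximal tubule markers, 13 genes of which 0 were at a count of 0 in every library, summed to 524 to 2011 CPM in controls and to 83.7 to 375 CPM in knockouts. Control 2 was the lowest control and knockout 3 the highest knockout in that sum. Transcripts of 4 Y-linked genes summed to 1.85 CPM in control 2, 0.760 CPM in knockout 1 and 2.63 CPM in knockout 4, and to 229 to 289 CPM in the other libraries. Control 2 was thus the only control with a low Y-linked level, beside knockouts 1 and 4, and the part of this in its place between the groups was not tested.

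All 37 genes passed the filter on low counts and were tested. In the knockout, 23 of them fell at an adjusted p under 0.05, which is termed a call here, and 0 rose. Across all 18485 genes tested, 14.9% were called, 8.27% lower and 6.61% higher. None of the 37 rose at an unadjusted p under 0.05 either, nor was any called higher by DESeq2 or limma-voom. Below 0 lay 34 of the 37 log2 fold changes, and 20 genes had every knockout library below every control library, compared with 9.58% of all genes tested. In 0 genes did every knockout lie above every control, compared with 9.29%. The median log2 fold change was −0.37 for the mitochondrial genome (7 of 13 called), −0.59 for the TCA cycle (14 of 17 called) and −0.18 for the biogenesis genes (2 of 7 called), against 0.00 over all genes tested. In bulk tissue, fewer cells of a mitochondria-rich type and less RNA per cell cannot be told apart.

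These calls rest on few libraries. Without control 1, 4 members were called and 2.86% of all genes, without control 3, 1 member and 2%, and without control 4, 5 members and 3.65%. Without knockout 1 it was 4 members and 3% of all genes, without knockout 2, 4 and 3.15%, and without knockout 4, 1 and 0.819%. Without control 2, in contrast, 29 members were called and 37.4% of all genes, and without knockout 3, 23 and 17%. In the fits with 1 library left out, 27 to 32 members had an unadjusted p under 0.05. The same was true of 25.6% to 47.8% of all genes. With both control 2 and knockout 3 left out, 28 members were called, where 42.7% of all genes were. Leaving out the 3 libraries with adrenal transcripts (control 4, knockouts 1 and 4) left 0 members called by edgeR and 0.00522% of all genes, and 17 members had an unadjusted p under 0.05, where 12.4% of all genes did. With all libraries, limma-voom called 30 members (44.9% of all genes), DESeq2 28 (21.3%) and edgeR 24 without a filter on low counts (7.36%), and 16 were called with a covariate of Y-linked transcripts (11.4%), which ended the calls of mt-Atp6, Ppargc1a, Esrra, Idh2, Dlst, Sucla2 and Sdha. In every one of these fits the 23 genes called with all 8 libraries had a log2 fold change below 0. The fold changes of the 37 genes in the plot by gene group show the TCA cycle genes grouped to the left of 0, the mitochondrial genes closer to it, and the biogenesis genes spread on either side.

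**Figure D1:**
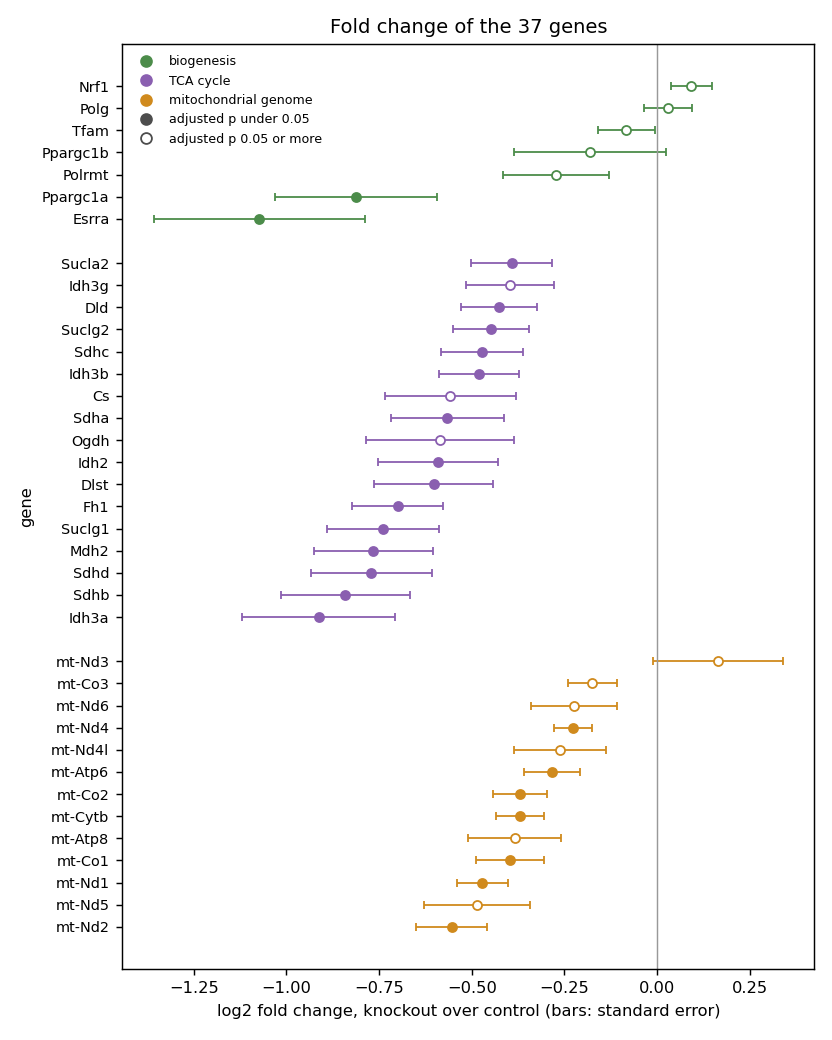
Log2 fold change of each of the 37 genes, knockout over control (x axis), with its standard error as a bar and genes on the y axis by group; filled points have an adjusted p under 0.05. All 17 TCA cycle genes lie below 0, from −0.91 for Idh3a to −0.39 for Sucla2, while mt-Nd3, Nrf1 and Polg lie above 0 with open points.

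Messenger RNA of the mitochondrial genome took up a smaller share of the knockout libraries. The 13 genes held 3.32%, 3.04%, 3.50% and 3.61% of all counts in controls 1 to 4, and 2.64%, 2.67%, 2.75% and 2.66% in knockouts 1 to 4. The groups did not overlap, and the spread was wider among controls (3.37% ± 0.249, SD, n = 4) than among knockouts (2.68% ± 0.0456, SD, n = 4). The log2 ratio of the group means was −0.33. It stayed between −0.39 and −0.28 when single libraries, the pair that lies between the groups or the libraries with adrenal transcripts were left out.

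Complex I takes 7 of its subunits from the mitochondrial genome, of which mt-Nd1, mt-Nd2 and mt-Nd4 were called. Differences among the 7 were not tested. Transcripts of mt-Nd1 (ENSMUSG00000064341, chrMT:2751-3707), which lies first of the coding genes, stood at 6428, 5737, 6787 and 6744 CPM in controls 1 to 4 and at 4283, 4753, 4809 and 4682 CPM in knockouts 1 to 4. Every knockout was below every control, and the level fell by 27.9% (log2 fold change −0.47, SE 0.07, adjusted p = 0.0109). It was the one gene of the 37 that was called whichever single library was left out, with an adjusted p of at most 0.0476. The next coding gene, mt-Nd2 (chrMT:3914-4951), went from 2465, 2016, 2477 and 2847 CPM in controls to 1677, 1652, 1766 and 1583 CPM in knockouts. Here too the groups were apart, and the log2 fold change, −0.55 (SE 0.10, adjusted p = 0.0149), had the largest size among the mitochondrial genes. The call was lost without control 3 (adjusted p = 0.0513) or knockout 4 (0.0588).

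Further along the genome, mt-Nd4 (chrMT:10167-11544) changed less, from 2045 ± 88.6 to 1747 ± 44.1 CPM (SD, n = 4 each), with every knockout below every control and a log2 fold change of −0.23 (standard error 0.05, adjusted p = 0.0264). mt-Nd5 (chrMT:11742-13565) missed the threshold at a log2 fold change of −0.49 (standard error 0.14, adjusted p = 0.0505). Its values were 3259, 2315, 3264 and 3779 CPM in controls and 2352, 2291, 2465 and 1899 CPM in knockouts, so control 2 lay among the knockouts. Without control 2, where 37.4% of all genes were called, the adjusted p of mt-Nd5 was 0.00223. With other single libraries left out it was up to 0.138. mt-Nd6 (chrMT:13552-14070), the only one of the 13 on the opposite strand, had 866, 1188, 920 and 1072 CPM in controls and 936, 928, 874 and 727 CPM in knockouts. These ranges overlap broadly (log2 fold change −0.22, SE 0.12, adjusted p = 0.20). Whether the counting used strand is not given in the sources used here, and without strand reads of mt-Nd6 and of transcripts from the opposite strand cannot be told apart; its annotated exon shares 14 bases with that of mt-Nd5. The 2 remaining subunits, mt-Nd3 and mt-Nd4l, are among the genes with low counts described below.

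The single mitochondrial subunit of complex III is cytochrome b, encoded by mt-Cytb (chrMT:14145-15288). It was measured at 6503, 5830, 6858 and 7006 CPM in controls and at 4850, 5142, 5201 and 5076 CPM in knockouts. No knockout reached the lowest control, and the gene fell by 0.37 on the log2 scale (standard error 0.07, adjusted p = 0.0154). Leaving out control 3 (adjusted p = 0.0555) or knockout 4 (0.0581) ended the call.

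In complex IV, cytochrome c oxidase, mt-Co1 (chrMT:5328-6872) encodes the catalytic subunit and had the highest counts of the 37 genes. Controls held 12853, 10590, 13827 and 14374 CPM and knockouts 9392, 9481, 10102 and 10231 CPM, again without overlap. The fall was 24.1% (log2 fold change −0.40, SE 0.09, adjusted p = 0.0270). mt-Co2, for the subunit that receives electrons from cytochrome c, was at 30.7 ± 1.28 CPM in controls and 23.8 ± 1.52 CPM in knockouts (SD, n = 4 each; log2 fold change −0.37, SE 0.07, adjusted p = 0.0194). mt-Co3 had 35.2 ± 0.875 and 31.2 ± 1.84 CPM and was not called (log2 fold change −0.18, SE 0.07, adjusted p = 0.0973), although each knockout value lay below each control value.

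For complex V, mt-Atp6, the subunit that forms part of the proton path, had 27.7, 28.7, 27.3 and 28.9 CPM in controls and 21.1, 22.3, 24.4 and 24.5 CPM in knockouts. The groups were separate and the log2 fold change was −0.28 (SE 0.08, adjusted p = 0.0385). mt-Atp8, whose frame overlaps that of mt-Atp6 by 43 bases, had 9.15 ± 0.844 and 7.02 ± 0.632 CPM (log2 fold change −0.38, SE 0.13, adjusted p = 0.0683). Without control 2, where 37.4% of all genes were called, its adjusted p was 0.0374, and with other single libraries left out up to 0.187. Of the 7 calls in the mitochondrial genome, those of mt-Nd4, mt-Co1 and mt-Atp6 were each lost without control 1, 3 or 4 or knockout 1, 2 or 4, at adjusted p from 0.0560 to 0.102. mt-Co2 kept its call without control 4 (0.0443) and lost it without the other 5 of these, at up to 0.0720.

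Levels of the 13 genes per length fell into 2 sets. In the controls, mt-Co1, mt-Nd1, mt-Cytb, mt-Nd2, mt-Nd6, mt-Nd5 and mt-Nd4, in this order, stood between 8357 and 1484 CPM per kilobase of gene length. The first 3 kept their order in 8 of 8 libraries, while mt-Nd2, mt-Nd6, mt-Nd5 and mt-Nd4 changed places, each above the next in 5 of 8. The level of mt-Nd6 may include reads of transcripts from the opposite strand, since the use of strand is not given. The other 6 genes, mt-Nd3, mt-Co2, mt-Co3, mt-Atp8, mt-Atp6 and mt-Nd4l, stood between 65.5 and 26.5 CPM per kilobase and together held 0.413% of the counts of the 13 genes. These 6 follow one another on the map, from chrMT:7013 to chrMT:10173. Of the 7 genes with high levels 5 were called (median log2 fold change −0.40), and of the 6 with low levels 2 (median −0.27). Across all genes tested, 14.9% were called, and the difference between the 2 sets was not tested.

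**Figure D2:**
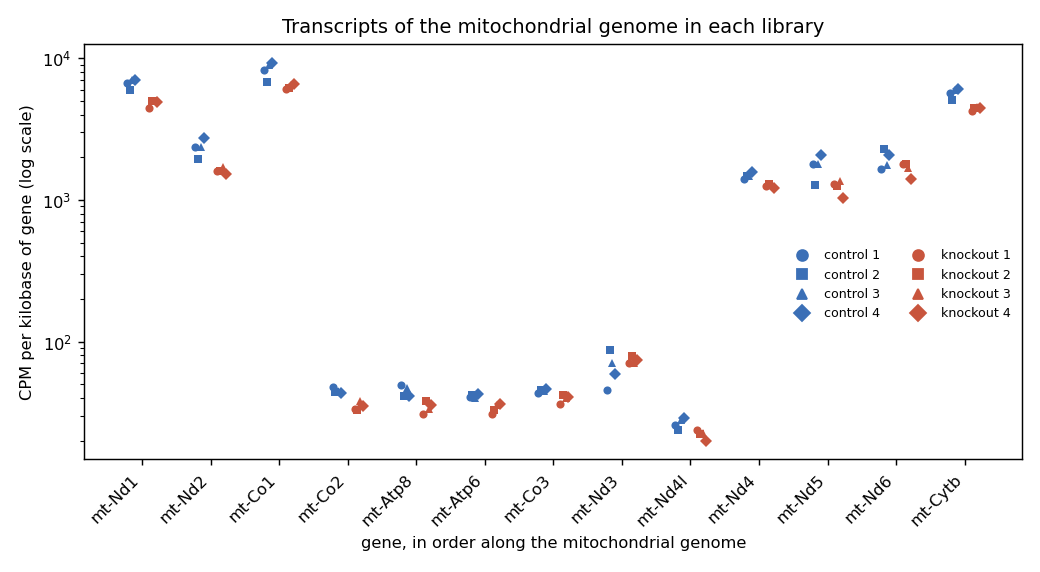
CPM per kilobase of gene length (y axis, log scale) for the 13 coding genes of the mitochondrial genome in map order (x axis), 1 point per library, controls in blue and knockouts in red. A run of 6 neighbouring genes from mt-Co2 to mt-Nd4l lies under 100 CPM per kilobase in all 8 libraries, and the other 7 lie far above them.

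Of the 6 genes with low counts, 5 have a near-identical annotated copy in the nuclear genome. On chromosome 1, a run of 4663 bases (chr1:24611535-24616197, minus strand, GRCm38) carries 7 unprocessed pseudogenes that match mitochondrial genes, in the same order as in the mitochondrial genome. When the transcript of each gene was divided into all overlapping pieces of 100 bases, 99.5% of those of mt-Co2 were found in Gm28661, 99.5% of mt-Atp6 in Gm10925, 99.9% of mt-Co3 in Gm28437, 97.6% of mt-Nd3 in Gm28438 and 98.5% of mt-Nd4l in Gm10222. The share was 60.8% for mt-Nd4 (Gm28439) and 26.3% for mt-Co1 (Gm29216), both of the set with high counts, and 0% for mt-Nd1, mt-Nd5, mt-Nd6 and mt-Cytb in any other annotated gene. mt-Atp8 had 0% too, but no gene is annotated between the copies of mt-Co2 and mt-Atp6. That gap (chr1:24614652-24614884) has 233 bases, as many as the stretch of the mitochondrial genome that holds most of mt-Atp8 (chrMT:7694-7926). The first 60 bases of mt-Atp6 (chrMT:7927-7986, plus strand) and of its copy (chr1:24614592-24614651, minus strand), and of mt-Nd3 (chrMT:9459-9518, plus strand) and its copy (chr1:24613060-24613119, minus strand), are shown because reads from such stretches match both places. Capitals mark the only base that differs over the 345 aligned bases of mt-Nd3, T3C, counted from 1 at the first base of the gene and with the mitochondrial base first. mt-Atp6 and Gm10925 have 0 differences over 678 aligned bases.
mt-Atp6: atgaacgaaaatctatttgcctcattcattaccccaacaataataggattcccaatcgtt
Gm10925: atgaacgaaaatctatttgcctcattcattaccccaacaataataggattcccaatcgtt
mt-Nd3: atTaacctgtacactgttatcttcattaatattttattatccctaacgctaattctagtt
Gm28438: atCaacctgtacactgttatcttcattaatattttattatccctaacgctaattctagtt

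How the counting treated reads that match more than 1 place is not given in the sources used here, and its part in these low levels was not tested. The values of the 5 genes with near-complete copies and of their copies are therefore uncertain to the extent that reads were dropped or shared between them. The same holds for mt-Nd4 and mt-Co1 over the parts that they share with a copy. For mt-Atp8, the bases of the gap on chromosome 1 were not compared with the gene. mt-Nd3 had 15.9, 30.5, 24.4 and 20.4 CPM in controls and 24.6, 27.6, 24.4 and 25.6 CPM in knockouts, with a spread among controls that covers all knockouts. Its log2 fold change of 0.17 (standard error 0.17, adjusted p = 0.521) was the only one above 0 among the 13. mt-Nd4l had 7.88 ± 0.668 and 6.57 ± 0.466 CPM (SD, n = 4 each; log2 fold change −0.26, SE 0.12, adjusted p = 0.165), and 7 of its bases lie in the exon of mt-Nd4 as well.

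Counts assigned to the copies were of the same order as those of the 5 genes or lower. Gm10925 had 37.5 ± 1.69 CPM in controls and 30.2 ± 1.31 CPM in knockouts (log2 fold change −0.31, SE 0.06, adjusted p = 0.0215), next to 28.1 and 23.1 CPM for mt-Atp6 itself. Gm28661 was also called lower (−0.30, adjusted p = 0.0222), as was Gm28439 (−0.48, adjusted p = 0.0280), while the copies of mt-Co1, mt-Co3, mt-Nd3 and mt-Nd4l had log2 fold changes from −0.57 to −0.17 and were not called. With the counts of each gene and its copy added together, a step chosen after seeing the data, the median of the 13 mitochondrial genes was −0.35. The 23 members then called were 7 mitochondrial, 14 TCA cycle and 2 biogenesis genes, and most of these had no copy to add. Reads dropped before counting are not recovered by this sum, so it cannot show their part in the low levels.

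**Figure D3:**
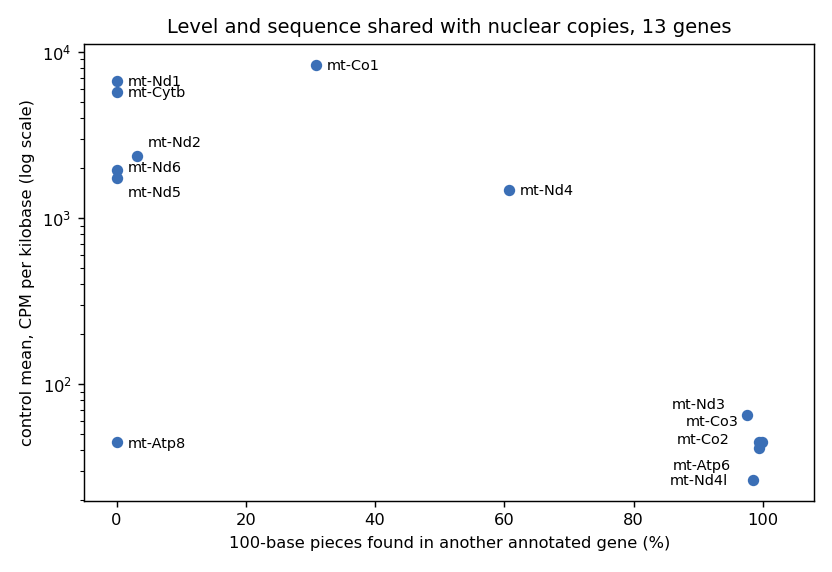
Control mean in CPM per kilobase (y axis, log scale) against the share of a gene's 100-base pieces that occur in another annotated gene (x axis, percent), for the 13 mitochondrial coding genes. The 5 genes at 97.6% or more lie between 26.5 and 65.5 CPM per kilobase, mt-Atp8 lies low at 0%, and mt-Nd4 lies high at 60.8%.

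Between the coding genes lie those for tRNAs, of which 22 were listed and 18 had enough counts to be tested. Of these, 3 were called lower and 0 higher, with 0 higher at an unadjusted p under 0.05 as well, and the median log2 fold change was −0.30. The 3 are 16.7% of those tested, near the 14.9% called of all genes, and at most 1 was called without control 1, control 3 or any of knockouts 1, 2 and 4. mt-Tl1 (chrMT:2676-2750), which ends at the base before mt-Nd1 begins, was at 48.2 ± 8.67 CPM in controls and 29.1 ± 3.22 CPM in knockouts (SD, n = 4 each; log2 fold change −0.73, SE 0.14, adjusted p = 0.0179). mt-Tp and mt-Ta had log2 fold changes of −0.76 and −0.63 (adjusted p = 0.0192 and 0.0205). mt-Tk was at a count of 0 in every library. The libraries were made from polyadenylated RNA, so counts on tRNA genes need not give levels of mature tRNAs. Whether these reads came from longer transcripts that span the tRNA genes was not tested. The ribosomal RNA genes mt-Rnr1 and mt-Rnr2 were not analysed here.

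The TCA cycle oxidises acetyl groups to carbon dioxide and hands the electrons to the respiratory chain. All 17 of its genes had log2 fold changes below 0. All 17 had an unadjusted p under 0.05, as 35.1% of all genes tested did in either direction. Of the 17, 14 were called, where 14.9% of all genes were. In 10, every knockout library lay below every control library, compared with 9.58% of all genes tested. The summed level of the 17 genes was 3906, 2803, 4166 and 4713 CPM in controls 1 to 4 and 2540, 2371, 2886 and 2519 CPM in knockouts 1 to 4. Control 2 therefore lay below knockout 3, and the other controls lay above all knockouts. The libraries kept nearly the same order from gene to gene: control 4 was the highest and control 2 the lowest control in 17 of 17 genes, knockout 3 the highest knockout in 15, and knockout 2 the lowest in 13. In the plot of TCA cycle genes by library, the low control and the high knockout meet in the gap between the groups.

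**Figure D4:**
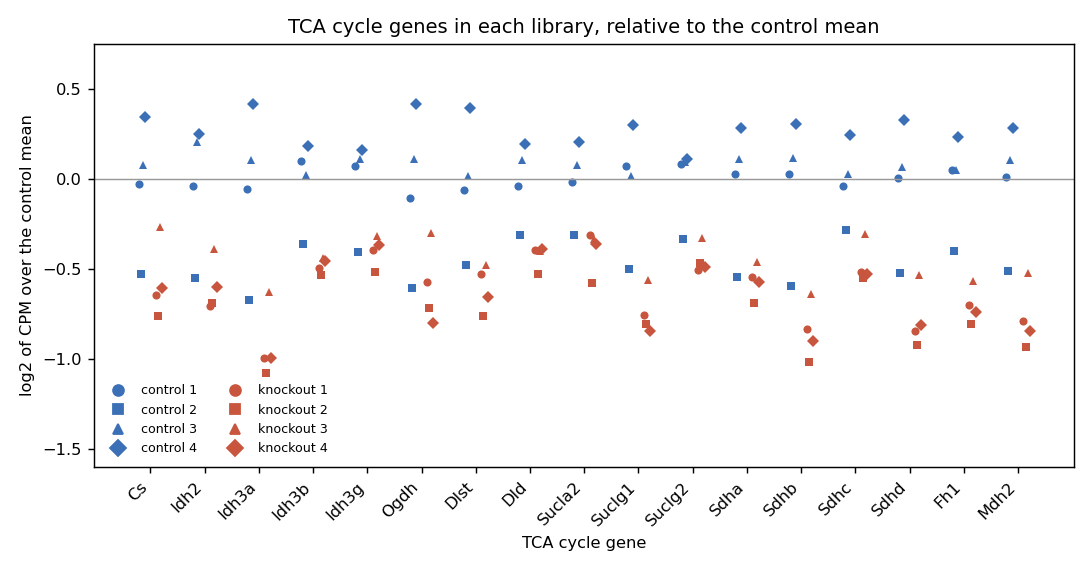
Log2 of each library's CPM over the control mean (y axis) for the 17 TCA cycle genes in the order of the cycle (x axis), controls in blue, knockouts in red. Control 2 (blue squares) is the lowest control for every gene and lies next to knockout 3 (red triangles), the highest knockout for 15 of 17.

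At the entry of the cycle, Cs, citrate synthase, joins acetyl-CoA to oxaloacetate. It had 242, 171, 261 and 314 CPM in controls and 158, 146, 205 and 162 CPM in knockouts, so control 2 lay below knockout 3, and it was not called (log2 fold change −0.56, SE 0.18, adjusted p = 0.0611). Without control 2, where 37.4% of all genes were called, its adjusted p was 0.00437, and with other single libraries left out up to 0.155. Csl, a related gene, shares 2.01% of the 50-base pieces of Cs.

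The isocitrate dehydrogenases carry the first oxidative decarboxylation, Idh2 with NADP and the Idh3a, Idh3b and Idh3g subunits with NAD. Idh3a (ENSMUSG00000032279, chr9:54586334-54604661), the catalytic subunit, showed the largest change of the 17. It was at 130, 85.0, 146 and 181 CPM in controls and at 67.8, 64.2, 87.5 and 68.1 CPM in knockouts. Apart from control 2 and knockout 3, which nearly coincide, the groups were well separated (log2 fold change −0.91, SE 0.21, adjusted p = 0.0260). The partner subunit Idh3b (chr2:130279309-130284547) was tighter among knockouts, at 240 ± 37.5 against 172 ± 4.84 CPM (SD, n = 4 each), and fell by 0.48 on the log2 scale (standard error 0.11, adjusted p = 0.0256) with no overlap. Idh3g (chrX:73778963-73786897) stood at 202 ± 33.5 and 153 ± 8.80 CPM and was not called (log2 fold change −0.40, SE 0.12, adjusted p = 0.0522). Its adjusted p was 0.00103 without control 2 and up to 0.140 with other single libraries left out. The 3 subunits of 1 enzyme thus had point estimates from −0.91 to −0.40, and the differences among them were not tested. Idh2 (chr7:80094846-80115392) went from 509 ± 118 to 338 ± 34.9 CPM (log2 fold change −0.59, standard error 0.16, adjusted p = 0.0422).

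The 2-oxoglutarate dehydrogenase complex consists of Ogdh, the decarboxylase, Dlst, which passes on the succinyl group, and Dld, which reoxidises the lipoyl arm and is shared with pyruvate dehydrogenase. Dlst (chr12:85110833-85134091) fell from 203 ± 49.6 to 134 ± 11.9 CPM (log2 fold change −0.60, standard error 0.16, adjusted p = 0.0382). Dld (chr12:31331564-31351437) fell from 186 ± 27.3 to 139 ± 6.29 CPM (−0.43, SE 0.10, adjusted p = 0.0298). In both, each knockout lay below each control, but for Dlst knockout 3 (146.15 CPM) and control 2 (146.20 CPM) nearly coincide. Ogdh (chr11:6291633-6356642) had 168, 119, 195 and 242 CPM in controls and 122, 110, 147 and 104 CPM in knockouts, with control 2 inside the knockout range and no call (log2 fold change −0.59, SE 0.20, adjusted p = 0.0752). Leaving control 2 out gave an adjusted p of 0.00591, and leaving out other single libraries gave up to 0.189.

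Succinyl-CoA ligase pairs the common subunit Suclg1 with either Sucla2, which makes ATP, or Suclg2, which makes GTP. Suclg1 (chr6:73248382-73276911) had 155, 104, 149 and 182 CPM in controls and 87.4, 84.4, 99.8 and 82.1 CPM in knockouts. All knockouts were under 100 CPM and all controls above it, and the fall was 40.1% (log2 fold change −0.74, SE 0.15, adjusted p = 0.0205). The alternative partners changed less, Sucla2 by −0.39 (SE 0.11, adjusted p = 0.0449) and Suclg2 by −0.45 (SE 0.10, adjusted p = 0.0263), a contrast that was not tested. Suclg2 shares 16.0% of its 50-base pieces with the predicted gene Gm15163.

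Succinate dehydrogenase is also complex II of the respiratory chain, with no subunit from the mitochondrial genome. All 4 of its genes were called, where 14.9% of all genes were. Sdhb (ENSMUSG00000009863, chr4:140961203-140979193), the iron-sulfur subunit, was at 211, 137, 224 and 255 CPM in controls and at 116, 102, 133 and 111 CPM in knockouts. Knockout 3 came within a few CPM of control 2 without crossing it (log2 fold change −0.84, SE 0.17, adjusted p = 0.0207). Sdhd (chr9:50596357-50603812), a membrane anchor, went from 209 ± 48.0 to 122 ± 14.9 CPM (−0.77, SE 0.16, adjusted p = 0.0223). Sdhc (chr1:171127165-171150603), the other anchor, fell by 0.47 (SE 0.11, adjusted p = 0.0275). Sdha (chr13:74322254-74350280), the flavoprotein that oxidises succinate, fell by 0.57 (SE 0.15, adjusted p = 0.0398), with knockout 3 (306 CPM) above control 2 (289 CPM).

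The last steps belong to fumarase and malate dehydrogenase. Fh1 (ENSMUSG00000026526, chr1:175600374-175625635), fumarase, was at 161, 118, 161 and 184 CPM in controls and at 96.0, 89.5, 105 and 93.6 CPM in knockouts. The groups were apart, and the adjusted p, 0.0153, was the lowest of the 17 (log2 fold change −0.70, SE 0.12). Mdh2 (chr5:135778480-135790398), which regenerates oxaloacetate, went from 349, 243, 372 and 422 CPM to 201, 181, 241 and 193 CPM, where knockout 3 nearly touches control 2 (log2 fold change −0.77, standard error 0.16, adjusted p = 0.0218). Among the fits with 1 library left out, Fh1 lost its call only without control 3 (adjusted p = 0.0516) or knockout 4 (0.0606). The other 13 calls of the cycle were each lost without control 1, 3 or 4 or knockout 1, 2 or 4, at adjusted p from 0.0507 to 0.123; that of Sucla2 was lost without knockout 3 as well. Without control 2, all 17 genes of the cycle were called, where 37.4% of all genes were.

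Per kilobase, control levels ranged from 197 CPM for Idh2, 170 CPM for Sdhd and 109 CPM for Sdha down to 32.0 CPM for Suclg1 and 26.7 CPM for Idh3a. Idh2 exceeded Sdhd, and Sdhd exceeded Sdha, in 8 of 8 libraries. Further down, Sdhb exceeded Cs, and Cs exceeded Dld, in only 4 of 8. The control ranges of all neighbours in the order overlapped. On the same scale the most abundant TCA cycle gene lay below the 7 mitochondrial genes of the set with high levels and above the 6 of the set with low levels.

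Among the biogenesis genes, the coactivator Ppargc1a and the receptor Esrra fell, and the others were not called. Ppargc1a (ENSMUSG00000029167, chr5:51454250-51567726), known as PGC-1 alpha, had 31.5, 29.2, 55.0 and 48.5 CPM in controls and 25.2, 17.6, 26.4 and 24.2 CPM in knockouts. Every knockout lay below every control, but controls 1 and 2 were close to the knockouts and controls 3 and 4 far above them (log2 fold change −0.81, SE 0.22, adjusted p = 0.0394). Esrra (ENSMUSG00000024955, chr19:6910977-6921813), an orphan nuclear receptor that Ppargc1a binds, had 47.0, 27.0, 55.6 and 66.6 CPM in controls and 22.6, 16.2, 32.9 and 21.4 CPM in knockouts. Knockout 3 lay above control 2, and the fall of 52.5% was the largest of the 37 genes (log2 fold change −1.07, SE 0.29, adjusted p = 0.0382). Of its annotated exon bases, 73 are shared with Trmt112 on the opposite strand, whose own level was 81.5 CPM in controls and 81.6 CPM in knockouts. The calls of Ppargc1a and Esrra were each lost without control 1, 3 or 4 or knockout 1, 2 or 4 (adjusted p from 0.0619 to 0.110). Both were also lost with all 8 libraries when Y-linked transcripts were a covariate (adjusted p = 0.0698 and 0.0636).

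Ppargc1b, the relative of Ppargc1a, was low throughout, at 5.98 ± 1.09 CPM in controls and 5.27 ± 1.13 CPM in knockouts (SD, n = 4 each; log2 fold change −0.18, SE 0.21, adjusted p = 0.553). Nrf1 (chr6:30047988-30153458), a factor for nuclear genes of the respiratory chain, had 54.5, 54.9, 54.0 and 54.0 CPM in controls and 60.5, 57.2, 54.7 and 59.5 CPM in knockouts. Controls hardly varied and only knockout 3 fell among them (log2 fold change 0.09, SE 0.06, adjusted p = 0.256).

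The 3 genes that act on mitochondrial DNA itself were not called. Tfam (chr10:71225464-71238280), which packages the DNA and starts its transcription, had 76.5 ± 7.25 and 72.2 ± 2.92 CPM (log2 fold change −0.08, SE 0.08, adjusted p = 0.461). Polrmt (chr10:79736123-79746581), the mitochondrial RNA polymerase, had 28.2, 21.8, 30.9 and 36.1 CPM in controls and 25.4, 21.6, 24.9 and 24.9 CPM in knockouts (log2 fold change −0.27, SE 0.14, adjusted p = 0.20). Control 2 and knockout 2 were equally low. Without control 2, where 37.4% of all genes were called, Polrmt was called at an adjusted p of 0.0170. With other single libraries left out it was not called, at an adjusted p of up to 0.449. Polg (chr7:79446231-79466362), the DNA polymerase, had 69.2 ± 4.26 and 70.7 ± 2.31 CPM (0.03, SE 0.06, adjusted p = 0.761), and 921 of its exon bases are shared with Fanci on the opposite strand.

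Promoters were searched for the motifs of 3 factors that are known to act on such genes, on both strands, from 250 bases before to 50 bases after the start site (RefSeq, GRCm38.p6). A promoter was found for 21 of the 24 nuclear genes, all but Ppargc1b, Idh3a and Sdhc. The Nrf1 motif occurred in 5 of the 21 (Sdha, Sdhd, Dld, Sucla2 and Polrmt), compared with 5.19% of all genes in the promoter table. The motif CCGGAAGT, bound by Gabpa and other ETS factors, occurred in 3 (Dlst, Polg and Tfam), compared with 4.31%. The motif TCAAGGTCA of the oestrogen-related receptors, Esrra among them, occurred in 1 (Sdhd), compared with 0.466%. No 2 of these matches overlap within a promoter except a pair of Nrf1 matches in Polrmt. Sdhd is shown because it holds both an Nrf1 and a receptor match, Sdha because it holds 3 Nrf1 matches, and Tfam as a gene with a match that was not called; capitals mark the matches, and a match is a description of letters and not a measured site.
Sdhd (chr9:50603800-50604099, minus strand): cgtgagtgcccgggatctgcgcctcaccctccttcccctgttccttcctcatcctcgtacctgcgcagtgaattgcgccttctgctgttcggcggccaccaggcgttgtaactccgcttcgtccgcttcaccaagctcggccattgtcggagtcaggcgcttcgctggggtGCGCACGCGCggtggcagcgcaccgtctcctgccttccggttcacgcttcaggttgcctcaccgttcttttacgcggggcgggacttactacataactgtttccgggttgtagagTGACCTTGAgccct
Sdha (chr13:74350191-74350490, minus strand): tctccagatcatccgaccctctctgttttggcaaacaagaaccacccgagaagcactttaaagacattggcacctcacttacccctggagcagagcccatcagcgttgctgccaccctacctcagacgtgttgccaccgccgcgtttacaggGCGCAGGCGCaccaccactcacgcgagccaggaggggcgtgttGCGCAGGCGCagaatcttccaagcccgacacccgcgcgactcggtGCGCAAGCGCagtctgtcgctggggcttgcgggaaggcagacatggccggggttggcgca
Tfam (chr10:71237995-71238294, minus strand): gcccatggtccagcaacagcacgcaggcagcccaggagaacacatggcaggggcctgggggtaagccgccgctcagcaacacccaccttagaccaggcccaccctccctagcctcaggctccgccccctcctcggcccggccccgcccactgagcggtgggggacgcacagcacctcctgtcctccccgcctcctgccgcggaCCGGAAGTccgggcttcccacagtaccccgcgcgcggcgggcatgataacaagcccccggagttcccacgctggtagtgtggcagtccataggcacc

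Of the 5 nuclear genes with an Nrf1 match, Sdha, Sdhd, Dld and Sucla2 were called lower and Polrmt was not. Of the 3 with an ETS match, Dlst was called lower and Polg and Tfam were not. Genes without any of the 3 motifs in this window, such as Sdhb, Suclg1, Fh1, Mdh2, Ppargc1a and Esrra, were called as well.

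Set side by side, summed transcripts of the mitochondrial genome were 75.4% of the control level in the knockout, and those of the TCA cycle 66.2%. The 13 mitochondrial genes summed to 34680 ± 3546 CPM in controls and 26153 ± 734 CPM in knockouts (SD, n = 4 each), and the 17 TCA cycle genes to 3897 ± 803 and 2579 ± 218 CPM. For each count of a TCA cycle gene there were 8.82, 10.7, 8.71 and 8.09 counts of mitochondrial genes in controls 1 to 4 and 9.98, 11, 9.40 and 10.3 in knockouts 1 to 4. Control 2 lay among the knockouts in this ratio and the other controls lay below them, so the groups overlap. In the plot of summed levels, control 2 is the lowest control and knockout 3 the highest knockout in both gene groups.

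**Figure D5:**
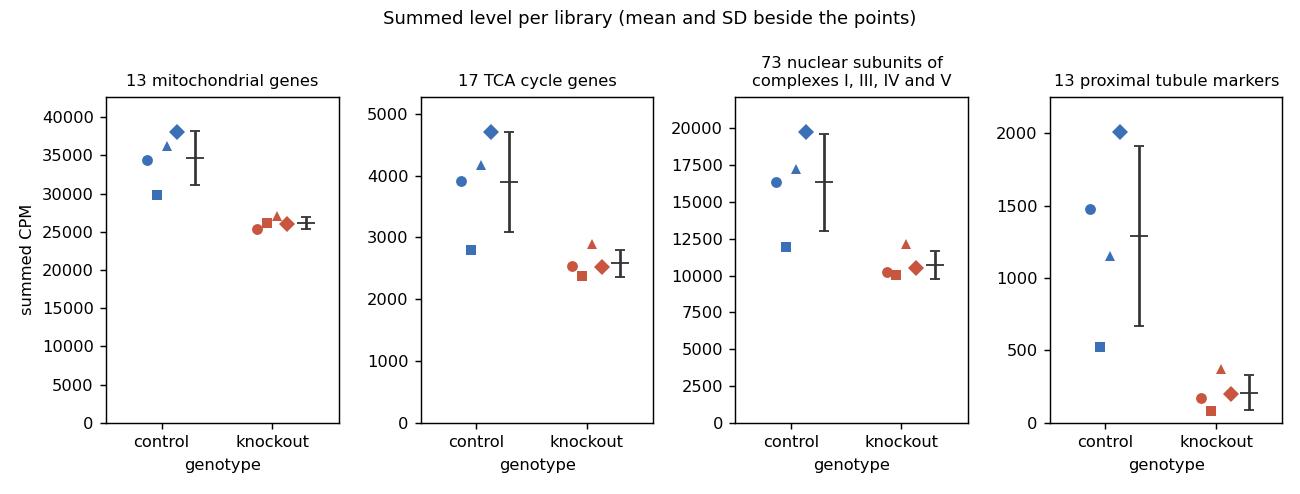
Summed CPM (y axis, from 0) of 4 gene groups in control (blue) and knockout (red) libraries, with circle, square, triangle and diamond for replicates 1 to 4 and the mean with SD beside the points. Control 2 is the lowest control and knockout 3 the highest knockout in all 4 panels; these libraries cross for the TCA cycle (2803 and 2886 CPM) and for the 73 nuclear subunits (11922 and 12142 CPM), but not for the mitochondrial genes or the proximal tubule markers.

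Markers of the tubule segments were measured beside these genes. With all libraries, all 13 proximal tubule markers were called lower (median log2 fold change −2.97), as were 3 of 5 of the thick ascending limb. Across all genes tested, 14.9% were called, 8.27% lower and 6.61% higher. The thick ascending limb markers summed to 202 to 987 CPM in controls and to 10.2 to 276 CPM in knockouts. Distal convoluted tubule markers summed to 454 to 595 CPM in controls and 485 to 681 CPM in knockouts. Of the 3 tested, 1 was called lower, at a log2 fold change of −2.80, and the median was 0.22. Collecting duct markers summed to 311 to 1009 CPM and 76.4 to 694 CPM, with 0 of 6 tested called by edgeR (1 at an unadjusted p under 0.05), 1 by DESeq2 and 5 by limma-voom, and a median of −1.03. Of 6 fibroblast markers, 2 were called higher, and their sum was 2662 to 3579 CPM in controls and 3056 to 5076 CPM in knockouts. Called lower were also 2 of 5 podocyte, 2 of 6 nephron progenitor and 1 of 6 endothelial markers, and 1 of 5 leukocyte markers tested was called higher. Only 2 of the 6 nephron progenitor markers had a log2 fold change below 0, and their median was 0.27. At an unadjusted p under 0.05, 1 of these 6 was higher, and limma-voom called 3 of them higher. In the marker sums of the proximal tubule and the thick ascending limb, control 4 was the highest library and control 2 the lowest control. The same held for the sums of the TCA cycle genes, the 13 mitochondrial genes and the 73 nuclear subunits. It held for the endothelial markers too, at 641 CPM in control 4 and 413 CPM in control 2. The part of any of these cell types in the changes of the 37 genes was not tested.

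Other genes of mitochondrial energy metabolism moved in the same direction. Of 73 nuclear subunits of complexes I, III, IV and V, 59 were called lower and 0 higher, with 0 higher at an unadjusted p under 0.05 too, and all 73 had a log2 fold change below 0 (median −0.54). By complex, 28 of 37 were called for complex I, 8 of 9 for complex III, 10 of 12 for complex IV and 13 of 15 for complex V, where 14.9% of all genes were called and 8.27% called lower. These calls rest on the same libraries: 0 of the 73 were called without control 1, control 3, knockout 1, knockout 2 or knockout 4, and 7 without control 4. Uqcrc2 of complex III was at 280 ± 50.3 CPM in controls and 180 ± 9.10 CPM in knockouts (log2 fold change −0.64, SE 0.12, adjusted p = 0.0188). Atp5b, the catalytic subunit of complex V, went from 1835 ± 519 to 988 ± 126 CPM (−0.89, SE 0.20, adjusted p = 0.0254). The counts of the 13 mitochondrial genes per count of these 73 were 2.11, 2.5, 2.10 and 1.93 in controls and 2.47, 2.61, 2.23 and 2.47 in knockouts, again overlapping through control 2.

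In the steps that feed and drain the cycle, 13 of 22 genes were called lower and 0 higher, although 1 was higher at an unadjusted p under 0.05 and 1 each by DESeq2 and limma-voom. The 13 are 59.1% of the list, against 14.9% of all genes. They fell to 0 without control 1, knockout 2 or knockout 4, to 1 without control 3 or knockout 1, and to 2 without control 4. Pcx, pyruvate carboxylase, which replenishes oxaloacetate, had the largest change, from 96.8 ± 50.9 to 23.6 ± 5.86 CPM (log2 fold change −2.04, standard error 0.38, adjusted p = 0.0174). Glud1, glutamate dehydrogenase, which yields 2-oxoglutarate, fell by 0.70 (SE 0.14, adjusted p = 0.0205), and Pdk2, a kinase that restrains pyruvate dehydrogenase, fell by 0.67 (SE 0.14, adjusted p = 0.0225). The machinery of mitochondrial translation and import had 12 of 21 genes called lower, among them Mrpl12, Mrps35 and Timm23, with a median of −0.29. Genes of mitochondrial shape and mass had 7 of 13 called lower (median −0.37), with Phb2, Slc25a5 and Vdac1 at the smallest adjusted p. These are 57.1% and 53.8% of their lists, and 0 genes of either were called without control 1, control 3, knockout 1, knockout 2 or knockout 4, and 2 and 1 without control 4. Of the genes for mitochondrial RNA synthesis and decay 3 of 17 were called (Lrpprc, Elac2 and Supv3l1; median −0.09), and of further regulators of biogenesis 3 of 19 (median −0.10). Their shares, 17.6% and 15.8%, are near the 14.9% of all genes. In the first of these lists 0 genes were called with any single library other than control 2 left out or with the covariate of Y-linked transcripts, and in the second 0 without control 1, control 3, knockout 1, knockout 2 or knockout 4, and 1 without control 4 or with that covariate.

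The 3 regulators were Esrrb, a relative of Esrra, at 25.7 ± 13 CPM in controls and 4.22 ± 2.97 CPM in knockouts (log2 fold change −2.59, SE 0.51, adjusted p = 0.0193), the deacetylase gene Sirt3 (−0.42, SE 0.11, adjusted p = 0.0381) and the fatty acid receptor gene Ppara (−1.49, SE 0.43, adjusted p = 0.0473). In these last 4 lists 0 genes were called higher by edgeR. At an unadjusted p under 0.05, 1 gene of RNA synthesis and decay and 3 of the regulators were higher, limma-voom called 1 and 5 of them higher, and DESeq2 0 and 1.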

How the data were processed

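Polyadenylated RNA of 8 frozen kidneys was sequenced from NEBNext Ultra libraries made with oligo-dT, per the labels' protocols. Library totals ran from 19524945 to 28544511 counts, and 1 count was 0.0350 to 0.0512 CPM before TMM scaling. The deposited tables hold read counts per Ensembl gene, not normalized. The submitters' processing notes name Trimmomatic 0.36, STAR 2.5.2b, Subread 1.5.2 (featureCounts), DESeq2 and the build GRCm38. Strand and the handling of reads that match several places are not given in the sources used here. Symbols came from GENCODE M21, in which 34 of the 37 genes have the start and end of the deposited table.

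Genes were tested on the counts with edgeR 4.0.16 (R 4.3.3; TMM scaling, filterByExpr, quasi-likelihood test, Benjamini-Hochberg adjustment over 18485 genes, call at 0.05), with no covariate, since the labels give no batch. CPM values are counts scaled to the TMM-adjusted library size, and shares are of all counts. The procedure was tested on simulated counts with the same spread for every gene and libraries of a group that differed in size only. That test therefore does not cover the libraries that lie between the groups or those with adrenal transcripts. Alternatives were DESeq2 1.42.0, limma 3.58.1 (voom with sample weights), other scalings and filters, a replicate block, a covariate of Y-linked transcripts and the leaving out of libraries. Lengths are those of the deposited table. Shared sequence was counted over pieces of 50 and 100 bases of GENCODE M21 transcripts, and promoters are RefSeq GRCm38.p6. A planned comparison of protein sequences was not run.

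The members, the lists and the marker genes were chosen with earlier results of these data known. All 37 members are named, and of each other list up to 3 called genes with the smallest adjusted p. Marker lists covered 13 cell or tissue types. Podocyte markers summed to 378 to 559 CPM in controls and 279 to 340 CPM in knockouts, and endothelial markers to 413 to 641 and 287 to 482 CPM. Nephron progenitor markers to 308 to 506 and 337 to 501 CPM, leukocyte markers to 57.4 to 70.8 and 67.2 to 83.6 CPM, and fat markers to 200 to 276 and 142 to 223 CPM. Muscle markers summed to 9.59 to 44.1 and 33.7 to 38.3 CPM, and red blood cell markers to 391 to 816 and 455 to 1393 CPM.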

Additional observations from a re-analysis of the deposited data

Results flagged for a closer look

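In 5 of 78 groups of 4 libraries, counting the 37 genes, the mitochondrial share and the TCA cycle sum in each genotype, a single library lay far from the other 3; chance sets apart about 1 in 20 such groups. Knockout 2 was the low library for Polrmt, at 21.6 CPM where the other knockouts had 24.9 to 25.4 CPM, and for Dld, at 129 CPM beside 141 to 142 CPM. Knockout 3 was the high library for Idh3a, at 87.5 CPM beside 64.2 to 68.1 CPM, and for Sdhc, at 153 CPM beside 129 to 132 CPM. Control 2 was the low library for Suclg2, at 148 CPM where the other controls had 197 to 201 CPM.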

How the results depend on the processing

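Of all genes, 4423 were called by DESeq2, 8302 by limma-voom, 7903 without control 2 and knockout 3 together, 1 without the 3 libraries with adrenal transcripts, and 153 to 7084 with 1 library left out, against 2751 with all. Of the 37 genes, 23 were called with all libraries, 28 by DESeq2, 30 by limma-voom, 0 without the adrenal libraries, and 1 to 29 with 1 library left out; other scalings and filters gave 22 to 24 and the covariate of Y-linked transcripts 16. In all 20 alternatives the 23 called genes had a log2 fold change below 0. The replicate block called 23 members and 3229 genes, gaining Cs and Idh3g and losing mt-Nd4 and mt-Atp6. With the mean of each group subtracted, the deviations of samples of the same number correlated at −0.11, 0.33, 0.23 and −0.06. Of the 4 controls, 2 correlated best with the knockout of their own number, so the numbers were not taken as a pairing. Medians ranged from −0.41 to −0.31 for the mitochondrial genes, −0.81 to −0.44 for the TCA cycle and −0.27 to −0.08 for the biogenesis genes. The sign turned, for uncalled genes near 0, in Ppargc1b without the adrenal libraries (0.0058), in Tfam without control 2 and knockout 3 (0.0060), and in Polg by limma-voom (−0.0077), without these 2 libraries (−0.012) and with 1 library left out (−0.0095 to 0.075). Causes were not tested. The adrenal step and the summing of nuclear copies were chosen after seeing the data. Genes under 10 CPM, such as mt-Nd4l, mt-Atp8 and Ppargc1b, rest on the fewest counts.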
